A study of Mus musculus with 18 samples.

Results

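Genes that carry peptides to MHC class I molecules were followed in AT3 cells, a mouse mammary carcinoma line that the study used as a model of TNBC. The set holds 8 genes, Tap1, Tap2, Tapbp, Tapbpl, Erap1, Calr, Pdia3 and Canx, chosen by their function and found by their Ensembl identifiers among the 43629 genes of the count table. For 1 h, cells were kept in A-241 at 250 nM, in A-485 at 1000 nM or in the DMSO vehicle. Vehicle or recombinant murine IFNγ (1 ng/mL) followed for 2 h, so that harvest was at 3 h. This made 6 groups of 3 libraries: DMSO, A-241, A-485, IFNγ, A-241 + IFNγ and A-485 + IFNγ. A-241 and A-485 are inhibitors of the acetyltransferase activity of P300 and CBP, and every group without an inhibitor received DMSO. All libraries came from 1 cell line. The labels call the replicates biological and the study's design text calls them technical, so n counts libraries, and p-values measure only the spread between them.

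MHC class I molecules show the contents of a cell to CD8+ T cells as short peptides. The proteasome cuts cytosolic proteins, and the TAP transporter, a dimer of the products of Tap1 and Tap2, pumps the fragments into the endoplasmic reticulum (ER). There tapasin (Tapbp) holds the class I molecule beside the transporter and helps it to exchange weak ligands for strong ones. TAPBPR (Tapbpl) is a relative of tapasin that edits peptides away from the transporter. Erap1 is an aminopeptidase that trims peptides inside the ER. Calreticulin (Calr) and calnexin (Canx) are lectin chaperones that hold newly made glycoproteins, and ERp57 (Pdia3) is a disulfide isomerase that works with both. IFNγ is known to raise the transporter and the editing factors in many cell types through transcription factors such as IRF1, whereas the general ER chaperones are known to answer mainly to unfolded protein.

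Of the 8 genes, 3 lie in the MHC region of chromosome 17. In the GRCm38 build with GENCODE vM21 annotation, Tap1 spans chr17:34187553-34197225, Tap2 spans chr17:34203527-34216321 and Tapbp spans chr17:33915899-33929292, all on the plus strand. Tap2 starts 6302 bases from Tap1, and the immunoproteasome gene Psmb8 lies between them, 496 bases from Tap1. Tapbpl lies at chr6:125223933-125231860 on the minus strand and Erap1 at chr13:74639568-74693201 on the plus strand. The chaperone genes are on 3 other chromosomes, with Calr at chr8:84841850-84846934 (minus), Pdia3 at chr2:121413775-121438687 (plus) and Canx at chr11:50293961-50325673 (minus).

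RefSeq promoter windows (GRCm38.p6, 250 bases before the start of the gene to 50 bases after it) were at hand for 6 of the 8 genes. The following 4 are shown, 5′ to 3′ on the strand of the gene, because Tap1 is the gene with the most calls below and the others hold motifs that few windows hold. The Tap1 window is chr17:34187306-34187605 on the plus strand, with a CCAAT box and a GC box (GGGCGG, here on the opposite strand) in capitals. The Erap1 window is chr13:74639603-74639902 on the plus strand, with a paired GAAA motif of the type that IRF proteins bind (GAAANNGAAA, on the opposite strand) in capitals. The Calr window, chr8:84846882-84847181, and the Canx window, chr11:50325624-50325923, are both on the minus strand and have the ER stress element (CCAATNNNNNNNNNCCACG, on the opposite strand in Calr) in capitals.
Tap1: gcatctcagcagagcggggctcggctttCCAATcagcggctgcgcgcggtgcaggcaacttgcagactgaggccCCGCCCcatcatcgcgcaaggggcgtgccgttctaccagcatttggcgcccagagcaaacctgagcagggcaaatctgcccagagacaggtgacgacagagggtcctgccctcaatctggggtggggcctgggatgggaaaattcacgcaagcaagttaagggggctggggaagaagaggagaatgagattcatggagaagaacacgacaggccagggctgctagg
Erap1: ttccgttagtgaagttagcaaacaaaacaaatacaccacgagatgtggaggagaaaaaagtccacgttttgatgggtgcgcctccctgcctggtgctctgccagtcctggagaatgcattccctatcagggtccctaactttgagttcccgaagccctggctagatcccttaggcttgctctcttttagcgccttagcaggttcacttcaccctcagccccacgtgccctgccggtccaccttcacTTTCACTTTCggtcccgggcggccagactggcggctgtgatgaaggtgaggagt
Calr: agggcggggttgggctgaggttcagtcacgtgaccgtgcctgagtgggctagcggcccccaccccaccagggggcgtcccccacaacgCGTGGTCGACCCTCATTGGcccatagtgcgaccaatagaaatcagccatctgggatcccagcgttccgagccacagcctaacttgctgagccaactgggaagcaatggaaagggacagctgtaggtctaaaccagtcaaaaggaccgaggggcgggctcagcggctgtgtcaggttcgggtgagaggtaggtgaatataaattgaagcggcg
Canx: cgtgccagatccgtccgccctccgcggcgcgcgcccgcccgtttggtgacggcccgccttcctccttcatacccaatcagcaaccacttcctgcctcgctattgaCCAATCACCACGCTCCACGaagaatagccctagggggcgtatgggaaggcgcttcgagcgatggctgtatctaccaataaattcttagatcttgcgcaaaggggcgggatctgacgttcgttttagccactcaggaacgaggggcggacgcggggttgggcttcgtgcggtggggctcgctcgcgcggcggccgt

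Both strands of each window were searched for letters alone. The paired GAAA motif was in the window of Erap1 and in none of the other 5 members' windows, and 3.44% of all 32851 RefSeq windows hold it. The ER stress element was in Calr and Canx, and 0.119% of all windows hold it. Each of these matches includes a CCAAT box, so the 2 motifs overlap there. A CCAAT box was in 5 of the 6 members' windows (37.4% of all windows) and a GC box in all 6 (35.7%). The GAS motif (TTCNNNGAA) was in none of the 6 (8.30% of all). The NF-kB motif was in Calr only (8.46% of all). The Tap1 window shares 275 of its 300 bases with that of Psmb9, an immunoproteasome gene on the opposite strand. A match of letters is not a measured binding site, and the windows leave out all enhancers.

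Each library held between 3417167 and 7856830 counts, so that 3 counts, the most that a count of 0 allows, equal between 0.382 and 0.878 CPM, the counts scaled to a common library size. Such limits cover counting error only, since the reads carried no molecular identifiers. No 2 libraries of a group agreed within counting noise (chi-square per degree of freedom of 2.09 to 125 over 18 pairs). DMSO replicate 3 and IFNγ replicate 2 stood apart. Their log2 levels deviated from the group mean by 0.73 and 0.76 (root mean square over genes), where the other 16 libraries had 0.23 to 0.51. Gm42418 held 20.1% and 23% of their counts and 7.11% to 16.2% elsewhere. The epithelial genes Epcam, Krt8, Krt18 and Cdh1 had counts in every library, whereas Krt19 and Cldn4 were at 0 in 17 and 13 libraries. The 6 epithelial markers summed to 479 to 1098 CPM. The 7 leukocyte and myeloid markers summed to 2.77 to 41.5 CPM and 4 MHC class II genes to at most 3.06 CPM. Of the leukocyte and myeloid markers, Lyz2 and Itgam had counts in all 18 libraries and Ptprc in all but 1, Cd3e and Csf1r were at 0 in 12 and 13 libraries, and Adgre1 was at 0 in all 18. The part of such cells in the results was not tested. In bulk RNA, fewer cells with a transcript and less of it per cell cannot be told apart.

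All 8 genes passed the filter on low counts and were tested among 11964 genes by edgeR's quasi-likelihood test with Benjamini-Hochberg adjustment over all of them. Tap2 held at most 8 counts in any library without IFNγ and passed the filter only through libraries with IFNγ. Calls were made at an adjusted p under 0.01. Counts of genes at an unadjusted p under 0.05 are given without the share over all genes, so they are a description only. Levels are log2 CPM or CPM scaled by TMM factors, and they compare libraries for 1 gene, since 3′ counts do not rank genes among themselves by length-free abundance.

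**Figure D1:**
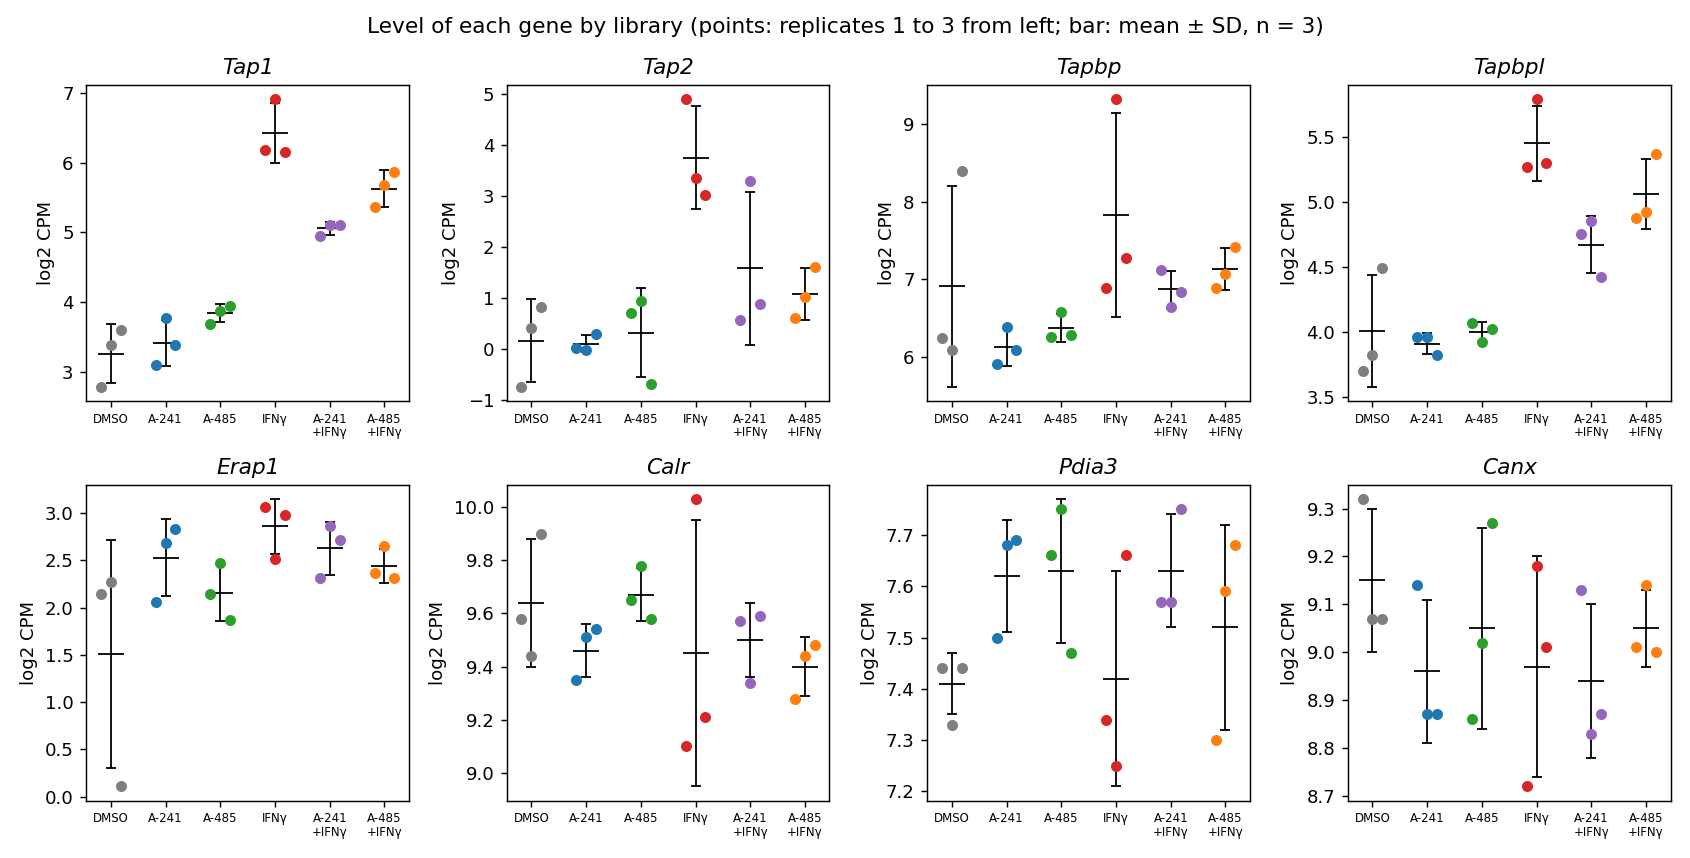
Level of the 8 genes in each library, as log2 CPM (prior count 2) on the vertical axis, by group on the horizontal axis. Points are replicates 1 to 3 from left to right and the bar is the mean ± SD of 3 libraries. Tap1, Tap2 and Tapbpl are highest in IFNγ, and Tapbp has 1 high library each in DMSO and IFNγ. The values of Calr, Pdia3 and Canx each lie within 1 log2 unit.

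The first comparison asked which of the genes respond to 2 h of IFNγ. Against DMSO, 3 of the 8 rose, Tap1, Tap2 and Tapbpl, while 1.20% of all genes tested were called higher. Tap2 was among the genes tested only because of libraries with IFNγ, so its call is tied to the filter. The median log2 fold change of the 8 was 1.02 and that of all genes tested 0.00. Every IFNγ library lay above every DMSO library for 4 of the 8 genes (4.16% of all genes), the 3 called and Erap1.

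Tap1 had 6.53, 10.1 and 11.7 CPM in the DMSO libraries and 72.3, 120 and 70.8 CPM in the IFNγ libraries. The groups did not overlap, and the lowest IFNγ library was several times the highest DMSO library. The fold was 9.31, a log2 fold change of 3.22 (SE 0.26, 95% interval 2.66 to 3.77, adjusted p = 8.11e-07). Of the 8 genes Tap1 had the smallest adjusted p in this comparison. Its highest libraries were DMSO replicate 3 and IFNγ replicate 2, which stood apart, and without the latter the log2 fold change was 2.94.

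Tap2, the partner of Tap1, was near the counting limit without IFNγ. The DMSO libraries held 1, 6 and 4 counts (0.211, 0.947 and 1.38 CPM), and the IFNγ libraries held 238, 33 and 44 counts (29.3, 9.83 and 7.69 CPM). The groups did not overlap, but IFNγ replicate 1 was far above the other IFNγ libraries. The log2 fold change was 4.28 (SE 0.83, 95% interval 2.52 to 6.04, adjusted p = 0.00763). Tap2 was no longer called when any 1 of DMSO replicates 1, 2 and 3 or IFNγ replicate 1 was left out, with log2 fold changes of 3.82, 4.51, 4.64 and 3.41 and adjusted p = 0.0662, 0.0432, 0.0141 and 0.0524 by edgeR. It was also not called by limma-voom with all libraries (log2 4.21, adjusted p = 0.0434).

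Tapbpl, the editor outside the loading complex, had 12.6, 13.7 and 22.1 CPM in DMSO and 38.1, 54.8 and 39.0 CPM in IFNγ. The libraries that stood apart, DMSO replicate 3 and IFNγ replicate 2, were the highest of their groups. The fold was 2.75 (log2 1.46, SE 0.22, adjusted p = 0.000890), and it was called with each of the 6 libraries left out in turn, between 1.29 and 1.74.

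Tapbp, which encodes tapasin itself, was not called. Its levels were 75.9, 67.6 and 336 CPM in DMSO and 118, 638 and 155 CPM in IFNγ. The high library of each group was again the one rich in Gm42418, and the groups overlapped because of DMSO replicate 3. The log2 fold change was 0.93 with a 95% interval of -0.30 to 2.16 (SE 0.58, adjusted p = 0.770). Without IFNγ replicate 2 it was -0.21 and without DMSO replicate 3 it was 2.09 (adjusted p = 0.804 and 0.0484). With both left out it was 0.91 (adjusted p = 0.0117), and the part of Gm42418 in the high values was not tested.

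Erap1 was low in all libraries, with 19, 28 and 2 counts in DMSO and 65, 18 and 43 in IFNγ, or 4.01, 4.42 and 0.691 CPM against 7.99, 5.36 and 7.52 CPM. All IFNγ libraries were above all DMSO libraries, and DMSO replicate 3 was the lowest. The log2 fold change of 1.10 was not called (SE 0.38, 95% interval 0.29 to 1.91, adjusted p = 0.275). Erap1 shares 834 exon bases at its 3′ end with Cast, a gene on the opposite strand that encodes calpastatin. No strand option was named for the counting, so reads of both genes cannot be told apart there and the values of Erap1 are uncertain. Cast itself had a log2 fold change of -0.15 (SE 0.22, adjusted p = 0.952).

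The chaperone genes were not called in this comparison, and their intervals were narrow. The log2 fold change was -0.14 for Calr (95% interval -0.59 to 0.30), 0.02 for Pdia3 (-0.30 to 0.34) and -0.18 for Canx (-0.52 to 0.17), with adjusted p = 0.954, 0.998 and 0.892. Calr, the calcium-binding lectin chaperone, had 766, 692 and 957 CPM in DMSO and 550, 1044 and 594 CPM in IFNγ. The highest Calr value of each group again came from DMSO replicate 3 and IFNγ replicate 2. Pdia3 had 173, 161 and 173 CPM in DMSO and 162, 152 and 202 CPM in IFNγ. Canx, the membrane-bound lectin, had 640, 536 and 539 CPM in DMSO and 421, 580 and 517 CPM in IFNγ, and for both genes the groups overlapped. Over the 3 genes and all 13 comparisons, the 39 log2 fold changes lay between -0.27 and 0.22, and the smallest adjusted p was 0.399.

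**Figure D2:**
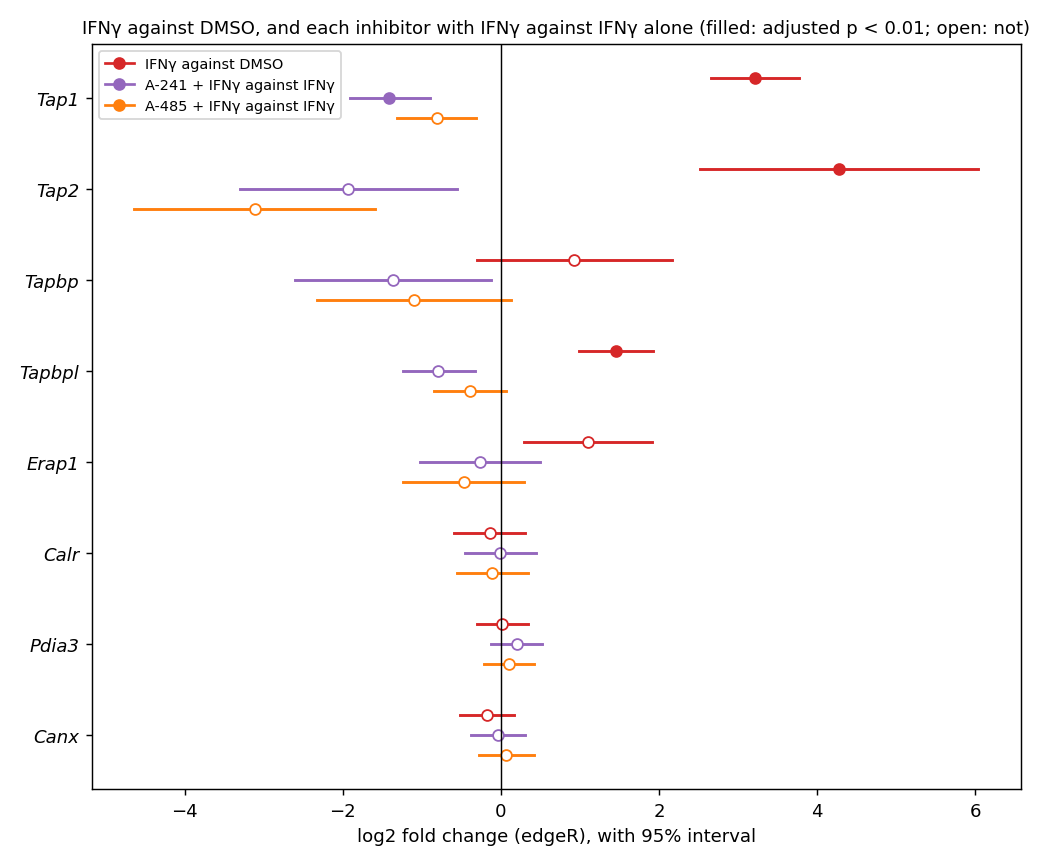
Log2 fold change (horizontal axis) with its 95% interval for each of the 8 genes, for IFNγ against DMSO and for each inhibitor with IFNγ against IFNγ alone. Filled points are called at an adjusted p under 0.01 and open points are not. Tap1, Tap2 and Tapbpl are filled for IFNγ against DMSO, Tap1 alone is filled for A-241 + IFNγ, and the intervals of Calr, Pdia3 and Canx all include 0.

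Without IFNγ, the inhibitors were compared with DMSO to ask whether they alter these genes at rest. With A-241, edgeR called 0 of the 8, against 4.35% of all genes in either direction. DESeq2 also called 0 (179 of all genes higher and 634 lower), as did limma-voom (86 higher and 376 lower). An unadjusted p under 0.05 was found for 0 of the 8. With A-485, edgeR called 0 of the 8, against 0.660% of all genes in either direction. DESeq2 also called 0 (10 of all genes higher and 232 lower), as did limma-voom (3 higher and 75 lower). Of the 8, 1, Tap1, had an unadjusted p under 0.05. Tap1 had 12.5, 14.3 and 15.1 CPM with A-485 and 8.20, 13.2 and 10.1 CPM with A-241. Every A-485 library was above every DMSO library for Tap1 and Pdia3 (7.07% of all genes), and every A-241 library for Pdia3 alone (13.3%). With A-485, Tap1 had a log2 fold change of 0.58 (95% interval 0.02 to 1.13, adjusted p = 0.380), whereas with A-241 its libraries overlapped those of DMSO (log2 0.17, 95% interval -0.39 to 0.73, adjusted p = 0.747). The medians of the 8 were -0.15 with A-241 and 0.12 with A-485. Some cell type markers moved with A-241. The 6 mesenchymal or fibroblast markers summed to 409 to 469 CPM with A-241, 530 to 559 CPM with A-485 and 577 to 705 CPM in DMSO. These sums are mostly those of Fn1 and Vim, with 41850 and 10920 counts over the 18 libraries. Col1a1, Col1a2, Pdgfra and Pdgfrb held 50, 2, 84 and 56 counts. Of the 3 mesenchymal or fibroblast markers tested, Fn1 and Pdgfra were called lower with A-241 against DMSO, and Vim was not called. Of all genes, 422 were called lower. Pdgfra had few counts and was at 0 in 3 libraries, so its call may be tied to the filter. The epithelial keratin gene Krt18 was also called lower, and the other epithelial markers tested were not called. The part of these markers in the results was not tested.

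The next comparison asked whether either inhibitor changes the level reached in the presence of IFNγ. Against IFNγ alone, Tap1 was lower with A-241 + IFNγ, the 1 call among the 8 genes, where 3.54% of all genes were called lower. By limma-voom 1 of the 8 was called (395 of all genes lower) and by DESeq2 2 were (608 of all genes lower). An unadjusted p under 0.05 was found for 4, Tap1, Tap2, Tapbp and Tapbpl, for which the share over all genes is not given. With A-485 + IFNγ, 0 of the 8 were called by edgeR, which called 64 of all 11964 genes lower (0.535%). By limma-voom 0 were called (72 of all genes lower) and by DESeq2 1, Tap2 (211 of all genes lower). An unadjusted p under 0.05 was found for 2, Tap1 and Tap2, for which the share over all genes is not given. Every library with the inhibitor was below every IFNγ library for 2 of the 8 genes with A-241 (Tap1 and Tapbpl, against 12.1% of all genes) and for 2 with A-485 (Tap1 and Tap2, against 10%). The mesenchymal or fibroblast markers summed to 440 to 559 CPM with A-241 + IFNγ, 577 to 678 CPM with A-485 + IFNγ and 526 to 783 CPM in IFNγ. The medians of the 8 were -0.52 and -0.43, and those of all genes -0.02 and -0.03.

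Tap1 had 30.5, 34.2 and 34.0 CPM with A-241 + IFNγ and 40.6, 50.7 and 57.9 CPM with A-485 + IFNγ, against 70.8 to 120 CPM with IFNγ alone. The 3 groups with IFNγ did not overlap with each other. The log2 fold change of Tap1 was -1.41 with A-241 (SE 0.24, 95% interval -1.91 to -0.90, adjusted p = 0.00116), a 2.65-fold lower level. It was -0.81 with A-485 (SE 0.23, 95% interval -1.31 to -0.32, adjusted p = 0.0971). The call with A-241 was lost without A-241 + IFNγ replicate 1 (log2 -1.35, adjusted p = 0.0104) and was kept in the other 5 fits with 1 library left out. Without IFNγ replicate 2, the outlying library with the highest Tap1 level, the values were -1.12 with A-241 and -0.54 with A-485.

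Tap2 had 5, 58 and 7 counts with A-241 + IFNγ (1.09, 9.46 and 1.44 CPM) and 6, 8 and 14 counts with A-485 + IFNγ (1.15, 1.63 and 2.66 CPM). A-241 + IFNγ replicate 2 reached the level of IFNγ alone, while the other libraries of both groups were near those without IFNγ. The log2 fold changes against IFNγ were -1.93 with A-241 (95% interval -3.30 to -0.55, adjusted p = 0.0888) and -3.11 with A-485 (95% interval -4.64 to -1.59, adjusted p = 0.0360). Without A-241 + IFNγ replicate 2 the value with A-241 was -3.62, which was called (adjusted p = 0.00553). Without IFNγ replicate 1 the values were -1.06 and -2.24, which were not (adjusted p = 0.358 and 0.167).

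Tapbpl had 26.5, 28.4 and 21.0 CPM with A-241 + IFNγ and 29.1, 29.9 and 41.0 CPM with A-485 + IFNγ. The first group lay wholly below IFNγ alone, as it did for 12.1% of all genes, and the second overlapped it. The log2 fold changes were -0.79 (95% interval -1.24 to -0.33, adjusted p = 0.0321) and -0.39 (95% interval -0.84 to 0.06, adjusted p = 0.404), neither of them called.

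Tapbp had 138, 100 and 114 CPM with A-241 + IFNγ and 118, 134 and 171 CPM with A-485 + IFNγ. These values lay around those of IFNγ replicates 1 and 3 and far below IFNγ replicate 2. The log2 fold changes were -1.37 (95% interval -2.61 to -0.13, adjusted p = 0.193) and -1.10 (95% interval -2.33 to 0.13, adjusted p = 0.389). Without IFNγ replicate 2 they were -0.22 and 0.04.

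Erap1, the peptide trimmer, had 4.57, 6.85 and 6.19 CPM with A-241 + IFNγ and 4.78, 5.91 and 4.56 CPM with A-485 + IFNγ. Its log2 fold changes against IFNγ were -0.26 (95% interval -1.02 to 0.50) and -0.47 (95% interval -1.24 to 0.29), with adjusted p = 0.742 and 0.564.

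The response to IFNγ was then measured within each inhibitor, with the inhibitor alone as the control. After A-241, 1 of the 8 genes rose, Tap1 (0.192% of all genes were called higher), and after A-485, 1 rose, also Tap1 (0.744%). Every library with IFNγ lay above every library without it for 4 of the 8 after A-241 (Tap1, Tap2, Tapbp and Tapbpl, against 6.08% of all genes) and for 3 after A-485 (Tap1, Tapbp and Tapbpl, against 9.49%). The medians of the 8 were 0.42 and 0.52, against 0.00 and -0.01 for all genes.

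Tap1 had log2 fold changes of 1.64 after A-241 (SE 0.25, adjusted p = 0.00434) and 1.83 after A-485 (SE 0.25, adjusted p = 0.000429), or folds of 3.12 and 3.56. The call after A-485 was kept with each library left out, whereas that after A-241 was lost in 5 of the 6 such fits, in which the log2 fold change stayed between 1.49 and 1.84 over all 6. Tapbpl had 0.79 (SE 0.22, adjusted p = 0.354) and 1.09 (SE 0.22, adjusted p = 0.0161). Tap2 had 2.55 (95% interval 0.65 to 4.45, adjusted p = 0.874) and 0.79 (95% interval -1.14 to 2.73, adjusted p = 1.00). The value of Tap2 after A-241 was 0.86 without A-241 + IFNγ replicate 2, so that 1 library set most of it.

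Tapbp, whose comparison with DMSO held both outlying libraries, was compared here in groups that hold neither. It had 59.7, 83.3 and 67.6 CPM with A-241 alone and 76.4, 95.2 and 77.6 CPM with A-485 alone, and the groups with IFNγ given above were higher in every library. The log2 fold changes were 0.74 and 0.76, both with an SE of 0.58 and an adjusted p = 1.00. In this model 1 spread is shared by all groups. With DMSO replicate 3 and IFNγ replicate 2 left out of the model, the values were 0.75 and 0.77, with adjusted p = 0.0344 and 0.0105.

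**Figure D3:**
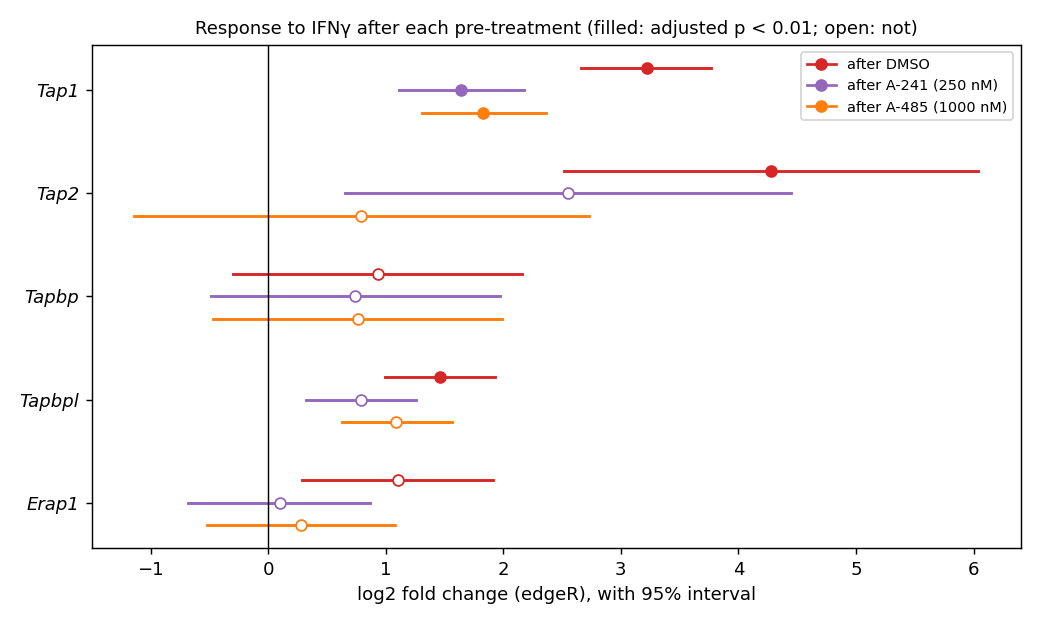
Log2 fold change in response to IFNγ (horizontal axis, with its 95% interval) after DMSO or after either inhibitor (250 nM for A-241 and 1000 nM for A-485), for the transporter, editing and trimming genes. Filled points are called at an adjusted p under 0.01. For Tap1 all 3 points are filled, at 3.22, 1.64 and 1.83, while Tap2 and Tapbpl are filled after DMSO only.

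The difference between these responses was tested itself, as the interaction of inhibitor and IFNγ. For each inhibitor 0 of the 8 genes were called by edgeR, DESeq2 or limma-voom. Of all genes, edgeR called 0.0334% in either direction for A-241 and 0% for A-485, whereas DESeq2 called 3 genes higher and 24 lower for A-241 and 3 higher and 7 lower for A-485. For each inhibitor, 2 members had an unadjusted p under 0.05. For Tap1 the response with A-241 differed from that after DMSO by -1.57 on the log2 scale (SE 0.35, 95% interval -2.33 to -0.82, adjusted p = 0.152), and with A-485 by -1.39 (SE 0.35, 95% interval -2.13 to -0.65, adjusted p = 0.477). For Tapbpl the interaction with A-241 was -0.67 (95% interval -1.33 to -0.01, adjusted p = 1.00), and for Tap2 that with A-485 was -3.49 (95% interval -6.25 to -0.73, adjusted p = 1.00).

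Cells that received inhibitor and IFNγ were also compared with untreated cells. With A-241 + IFNγ, 1 of the 8 was higher than in DMSO, Tap1, and with A-485 + IFNγ, 2 were, Tap1 and Tapbpl (0.894% of all genes were called higher in each). Tap1 was 3.51-fold higher with A-241 + IFNγ (log2 1.81, SE 0.26, adjusted p = 0.000247) and 5.30-fold higher with A-485 + IFNγ (log2 2.41, SE 0.26, adjusted p = 2.49e-05). For Tapbpl the log2 fold changes were 0.67 (adjusted p = 0.0791) and 1.07 (adjusted p = 0.00874), the last of which was lost in 5 of the 6 fits with 1 library left out. These comparisons and those above share their control libraries.

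The 2 inhibitors, which the study describes as chemically distinct, were set side by side at their different doses. Without IFNγ, edgeR called 0 of the 8 genes (0.368% of all genes in either direction). DESeq2 also called 0 (16 of all genes higher and 109 lower), as did limma-voom (2 higher and 26 lower). Of the 8, 0 had an unadjusted p under 0.05. With IFNγ, edgeR called 0 of the 8 (0.518% of all genes in either direction). DESeq2 also called 0 (3 of all genes higher and 108 lower), as did limma-voom (2 higher and 64 lower). Of the 8, 1, Tap1, had an unadjusted p under 0.05. The log2 difference of A-241 + IFNγ from A-485 + IFNγ was -0.59 for Tap1 (95% interval -1.09 to -0.10, adjusted p = 0.580). Every A-241 + IFNγ library was below every A-485 + IFNγ library for Tap1 and Tapbpl (11.8% of all genes). It was -0.40 for Tapbpl (95% interval -0.85 to 0.06) and 1.19 for Tap2 (95% interval -0.43 to 2.80). For Tap1 without IFNγ it was -0.41 (95% interval -0.95 to 0.13). With 1 dose of each compound, dose and compound cannot be told apart.

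Neighbouring genes of the MHC region were read beside the transporter. Psmb9, which lies head to head with Tap1 and shares 212 exon bases at its 5′ end, rose with IFNγ by 3.72 on the log2 scale (SE 0.37, adjusted p = 9.05e-06). It had 0.843, 1.26 and 2.42 CPM in DMSO, 21.6, 12.5 and 21.5 CPM in IFNγ, 8.48, 10.1 and 9.49 CPM in A-241 + IFNγ and 8.61, 8.15 and 7.22 CPM in A-485 + IFNγ. IFNγ replicate 2, the highest library for Tap1, was the lowest IFNγ library for Psmb9. The shared bases lie 9461 bases from the 3′ end of Tap1, the end that 3′ sequencing reads. Psmb8, between the transporter genes, had 16.6, 3.87 and 6.47 CPM in IFNγ and 1.96, 6.52 and 2.89 CPM in A-241 + IFNγ. The libraries highest for Psmb8 in these groups, IFNγ replicate 1 and A-241 + IFNγ replicate 2, were those highest for Tap2. They were also the deepest libraries of their groups, with 7856830 and 5526465 counts, and the part of depth was not tested beyond leaving the deepest libraries out.

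**Figure D4:**
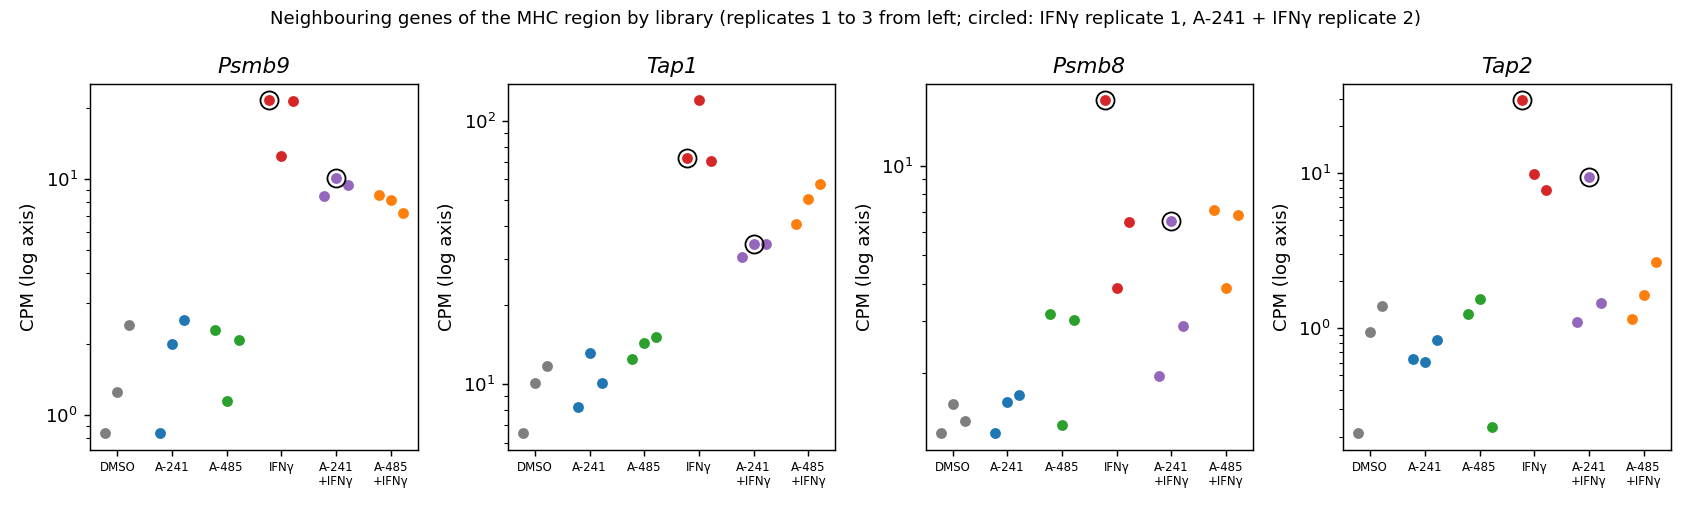
CPM on a log axis in each library for Psmb9, Tap1, Psmb8 and Tap2, ordered as on the chromosome, with 1 axis per gene since heights are not compared between genes. IFNγ replicate 1 and A-241 + IFNγ replicate 2 are circled. The circled libraries are the highest of their groups for Psmb8 and Tap2, at 29.3 and 9.46 CPM for Tap2. They are also the highest for Psmb9, at 21.6 and 10.1 CPM, but close to others of their groups. For Tap1 they lie at 72.3 and 34.2 CPM beside others, and only the second is the highest of its group.

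The rest of the pathway was described by lists. With IFNγ against DMSO, 2 of the 6 genes of the immunoproteasome and its activator rose, Psmb9 and Psmb10, a catalytic subunit (log2 1.42, SE 0.23, adjusted p = 0.00164), with a median of 1.20, where DESeq2 called 4 and limma-voom 2. Of the 9 MHC class I genes, 5 were tested and 1 rose, B2m, the invariant light chain (log2 1.05, SE 0.21, adjusted p = 0.00823), with a median of 1.05, where DESeq2 called 1 and limma-voom 0. Of all 11964 genes tested, edgeR called 144 higher and 12 lower, DESeq2 187 and 31, and limma-voom 134 and 13. Of the regulators of the IFNγ pathway, the transcription factors Irf1 (log2 5.05), Irf8 (7.42) and Stat2 (2.50) and the class I transactivator Nlrc5 (4.63) rose, with adjusted p between 3.52e-08 and 0.000132.

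The remaining 6 lists covered constitutive proteasome subunits, other peptide-trimming enzymes, the translocon, the lectin cycle, oxidoreductases and chaperones of the ER. Of their 45 genes 43 were tested, and 0 were called by edgeR, DESeq2 or limma-voom in IFNγ against DMSO, with 2 at an unadjusted p under 0.05 and a median of 0.03. The separate medians were -0.09, 0.03, 0.00, 0.09, 0.19 and 0.09 in that order. The median of these 43 genes was 0.10 with A-241 + IFNγ and 0.07 with A-485 + IFNγ against IFNγ alone, again with 0 called by any of the 3 tools and 4 and 2 at an unadjusted p under 0.05.

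Against IFNγ alone, the regulators Stat2 (log2 -1.05, adjusted p = 0.00413), Irf8 (-2.43, 0.00318) and Nlrc5 (-2.90, 0.000700) fell with A-241 + IFNγ. Their values with A-485 + IFNγ were -0.64, -1.46 and -1.50, none of the 3 called (adjusted p = 0.138, 0.112 and 0.0773), and those of Irf1, not called with either inhibitor, were -0.87 with A-241 and -0.35 with A-485 (adjusted p = 0.0547 and 0.549). Of the immunoproteasome list 0 were called with A-241 by edgeR, 2 by DESeq2 and 0 by limma-voom (4 at an unadjusted p under 0.05, median -0.65), and for A-485 it was 0, 1 and 0 (1 at an unadjusted p under 0.05, median -0.25). Of the class I list 0 were called with either inhibitor by the 3 tools, with 0 at an unadjusted p under 0.05 and medians of -0.12 and -0.26.

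The genes most like each induced member were read from the 6 group means of log2 CPM, as a description over 6 points that share their libraries. Among 2700 genes whose means span at least 1 log2 unit, those most like Tap1 were Rtp4, Irgm1, Nmi, Parp12 and Irf8, with Pearson r from 0.990 to 1.000. Those most like Tapbpl were Rbm47, Gbp7, Igtp, Iigp1 and Chst2 (r from 0.993 to 0.997). Those most like Tap2 were Trim5, Rgs20, Isg15, Susd6 and Pnpt1 (r from 0.975 to 0.989). Between members, r was 0.99 for Tap1 with Tapbpl, 0.89 for Tap1 with Tap2 and 0.83 for Tap1 with Tapbp.

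**Figure D5:**
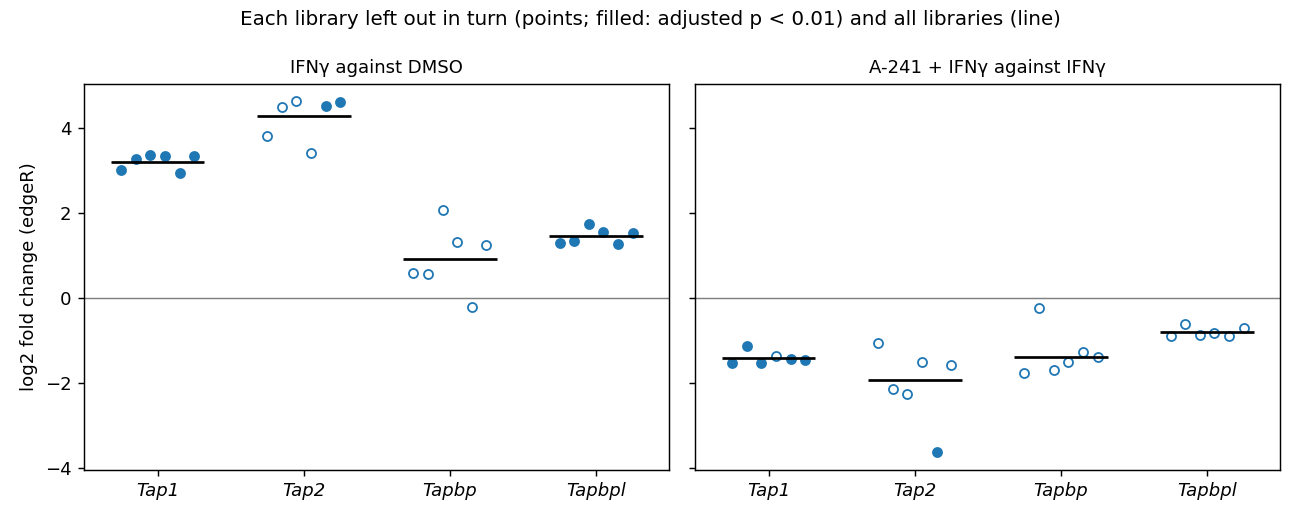
Log2 fold change (vertical axis) of the transporter and editing genes in IFNγ against DMSO and in A-241 + IFNγ against IFNγ, with all libraries (line) and with each of the 6 libraries left out in turn (points, filled where called). Tap1 lies between 2.94 and 3.38 at left and between -1.53 and -1.12 at right, whereas Tapbp ranges from -0.21 to 2.09 at left.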

How the data were processed

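RNA of AT3 cells was sequenced from the 3′ end (QuantSeq, 75 bp single-end reads) in 18 libraries, 3 for each of 6 groups taken from the sample labels. The deposited values are raw counts of reads per gene, one column per library. The authors made them by trimming with cutadapt 1.7, aligning to GRCm38 with HISAT2 2.1.0 and counting over exons with featureCounts, where a read over several genes was counted for each, and no normalization was applied. The submitters' processing notes also name bcl2fastq 2.17.1.14, FastQC 0.11.5 and limma. The annotation release is not given in the sources used here. Identifiers were joined to GENCODE vM21, in which 42548 of 43629 (97.5%) were found, and the rest held 0.403% of counts. Promoter windows are RefSeq's (GRCm38.p6).

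Genes were kept by filterByExpr with the group, which left 11964. TMM factors and 1 model with a mean for each group were fitted to all libraries (edgeR 4.0.16, glmQLFit), and 13 comparisons were tested (glmQLFTest) with Benjamini-Hochberg adjustment over all genes. The threshold for a call was an adjusted p of 0.01. For levels, log2 CPM were computed with 2 as the prior count. Intervals are 95% intervals of the fitted change. Depth was 3417167 to 7856830 counts. On simulated data for IFNγ against DMSO, with 200 of the 11964 genes changed, edgeR called 7.00% of those changed by 1 on the log2 scale and 71.0% of those changed by 2, with 1 false call, so an uncalled gene may have changed. R 4.3.3, limma 3.58.1, DESeq2 1.42.0, sva 3.50.0, Python 3.11.15, pandas 2.3.3 and matplotlib 3.10.9 were used.

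The 8 members, the lists of related genes and most alternatives were chosen with earlier results of these data known. All members are named. Of the class I, immunoproteasome, trimming and regulator lists, genes called in the comparison are named, except that 1 regulator is not reported here and that list is given without counts or medians, other lists are given by counts and medians, and genes that overlap or neighbour a member are named where their level was needed. The genes of like pattern are the 5 of highest r among genes spanning at least 1 log2 unit. Alternatives were DESeq2, limma-voom, quality weights, 3 other scalings, 2 other filters, a replicate block, 2 surrogate variables, only the groups compared, each library left out, both libraries rich in Gm42418 left out, a threshold of 0.05 and, chosen after seeing the data, the deepest library of every group left out.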

Additional observations from a re-analysis of the deposited data

How the results depend on the processing

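Tap1 was called in IFNγ against DMSO under every alternative but 1, the fit of only the groups compared, with log2 fold changes of 2.94 to 3.40. The number of the 8 members called, by edgeR unless another tool is named, changed as follows. In IFNγ against DMSO, where 3 were called, it was 0 when only the groups compared were fitted, 1 with the deepest library of every group left out (a choice made after seeing the data), 2 with limma-voom, total counts, quality weights, the replicate block or at least 10 counts in every library, 4 with 2 surrogate variables and 2 to 3 with each library left out. In A-241 + IFNγ against IFNγ, where 1 was called, it was 2 at a threshold of 0.05 and with DESeq2, 3 with 2 surrogate variables or quality weights, 0 when only the groups compared were fitted or the deepest libraries were left out, and 0 to 2 with each library left out. In A-485 + IFNγ against IFNγ, where 0 were called, it was 1 at 0.05, with DESeq2, without the filter, with quality weights and without both libraries rich in Gm42418. In the response to IFNγ after A-241, where 1 was called, it was 3 with surrogate variables, 0 without the deepest libraries and 0 to 1 with each library left out. After A-485, where 1 was called, it was 2 at 0.05, with DESeq2, total counts, quality weights or without both Gm42418-rich libraries, 4 with surrogate variables, 3 when only the groups compared were fitted and 0 without the deepest libraries. In A-241 + IFNγ against DMSO, where 1 was called, it was 4 with surrogate variables, 2 with quality weights or without both Gm42418-rich libraries, and 0 when only the groups compared were fitted or the deepest libraries were left out. In A-485 + IFNγ against DMSO, where 2 were called, it was 1 with RLE or upper-quartile factors and with the replicate block, 3 without both Gm42418-rich libraries, 4 with surrogate variables, 0 when only the groups compared were fitted or the deepest libraries were left out, and 1 to 2 with each library left out. With surrogate variables, 1 member was called in A-241 + IFNγ against A-485 + IFNγ and 1 in the A-241 interaction. Of all genes, 26 were higher and 276 lower in the first, and 23 higher and 57 lower in the second. In IFNγ against DMSO, 144 of all genes were called higher, and 347 with surrogate variables. It was 19 with only the groups compared and 38 without the deepest libraries. It was 134 with limma-voom, 132 with total counts, 171 with quality weights and 119 with the replicate block. With at least 10 counts in every library it was 68 of 8783 genes tested. In A-241 + IFNγ against IFNγ, 424 were called lower, 1041 with surrogate variables, 811 with quality weights and 608 with DESeq2. It was 82 with only the groups compared and 57 without the deepest libraries. In A-485 + IFNγ against IFNγ, 64 were called lower, 211 with DESeq2 and 402 with quality weights. In the response to IFNγ after A-241 and after A-485, 23 and 89 were called higher. With surrogate variables these were 101 and 248, and without the deepest libraries 3 and 13. Against DMSO, 107 were called higher with either inhibitor and IFNγ. With surrogate variables these were 770 with A-241 and 356 with A-485. Fits of only the groups compared and those without libraries hold fewer samples. With only the groups compared, calls over all genes fell in some comparisons and rose in others, as given above. The cause of the changes was not tested.

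Values that changed sign were uncalled. Against DMSO with IFNγ, leaving out each library gave -0.21 to 2.09 for Tapbp, -0.49 to 0.02 for Calr and -0.11 to 0.10 for Pdia3. Tap1 in A-241 against DMSO ranged from -0.04 to 0.33. Tapbp in A-485 + IFNγ against IFNγ ranged from -1.48 to 0.04 and was 0.04 without both Gm42418-rich libraries. Tap2 in A-241 + IFNγ against A-485 + IFNγ ranged from -0.51 to 1.61, and was -0.47 with surrogate variables and -0.12 without the deepest libraries.

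Libraries of the same replicate number were no more alike than others. Their deviations from the group mean had correlations of -0.80 to 0.48 (median -0.02), with 15 of 45 pairs over 0.1. Between libraries of other numbers the correlations were -0.76 to 0.83 (median -0.02), with 28 of 90 pairs over 0.1. With the replicate block, Tap2 in IFNγ against DMSO had an adjusted p of 0.0155, and Tap1 in A-241 + IFNγ against IFNγ had a log2 fold change of -1.39 (adjusted p = 0.000431). Depth limits Tap2 and Erap1 most, whose libraries without IFNγ held at most 8 and 32 counts.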
